A study of Pardosa pseudoannulata with 16 samples.

Results

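These results describe 150 sequence clusters that were higher in every UM and UH library than in any Ck or UL library of the wolf spider Pardosa pseudoannulata. They were chosen from 136360 clusters by an order of values: on the scale log2(FPKM + 1), the lowest of the 8 UM and UH values had to exceed the highest of the 8 Ck and UL values. The distance between those values is called the gap. In all, 193 clusters met the order, 0.142% of those deposited and 0.358% of those tested below, and the 150 with the widest gap were kept. The opposite order, with every Ck and UL value above every UM and UH value, was met by 218 clusters. FPKM counts fragments relative to the length of a cluster and to the size of its library. The difference of UM and UH from Ck and UL chose the members, so it is given as a description with no test. The order treats UM and UH alike, and likewise Ck and UL, so the differences within these pairs were open to test. The tests share a spread over all 4 groups, and the order limits how high the Ck and UL values can reach. The order also keeps out clusters low in either UM or UH, so members and all clusters tested are not like sets.

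The libraries were made from poly-A RNA of whole spiders collected as adults from rice fields. Each of the 4 groups (Ck, UL, UM and UH) has 4 libraries. The study kept spiders for 30 days on soil that held 1 of 3 amounts of urea, the highest being 400 mg/kg and the lowest 0, but its text does not tie these to the 4 groups, and the labels give all groups, Ck included, the same urea treatment. No concentration or order of concentration was therefore given to any group. The labels do not say whether each replicate was a separate animal. The p-values therefore reflect only how far these libraries spread, and that spread may be technical.

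Urea is a nitrogen fertiliser, which soil microbes break down to ammonia. Wolf spiders hunt on the ground between rice plants and are known as predators of planthoppers. Spiders pass surplus nitrogen mainly as guanine rather than as urea. An RNA library of a whole animal mixes all tissues, so fewer cells of a type and less RNA per cell cannot be told apart in any value below. The clusters are assembled sequences with no gene names, so they are called by their identifiers. The labelled tissue could not be checked against marker genes, and no function is given to any member.

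Depth, estimated from the steps between low values, was 16.7 M to 20.9 M fragments per library. Correlations between libraries of a group, taken across clusters, ran from 0.754 to 0.908 in Ck and from 0.879 to 0.933 in UH. A single library, Ck replicate 1, weighed most on the choice of members. It alone kept 662 further clusters out of the order, against 11 to 116 for each of the other 15 libraries. Without it 855 clusters met the order, and 27 of the 150 with the widest gap were members.

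The members were mostly of low to middle abundance. Their mean over the 8 UM and UH libraries was under 1 FPKM in 44, between 1 and 10 in 62, between 10 and 100 in 39 and above 100 in 5. The median member had 0.47 to 0.825 FPKM in the Ck libraries and 0.32 to 0.745 in the UL libraries. It had 1.96 to 2.55 FPKM in the UM libraries and 2.87 to 4.62 in the UH libraries. The ranges of Ck and UL overlap, while the range of UH lies above that of UM. For the 139 members listed above 0 in some Ck or UL library, the median ratio of mean FPKM to the mean of Ck and UL was 3.34 in UM and 5.00 in UH. That ratio reached 5 in 40 members in UM and in 70 members in UH. Together the members held 0.0740 to 0.218% of a Ck library's FPKM and 0.504 to 0.890% of a UH library's. A few abundant members weigh on these sums. In UH replicate 2 the members summed to 7138.54 FPKM, of which Cluster-9253.84883 held 3198.14.

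**Figure D1:**
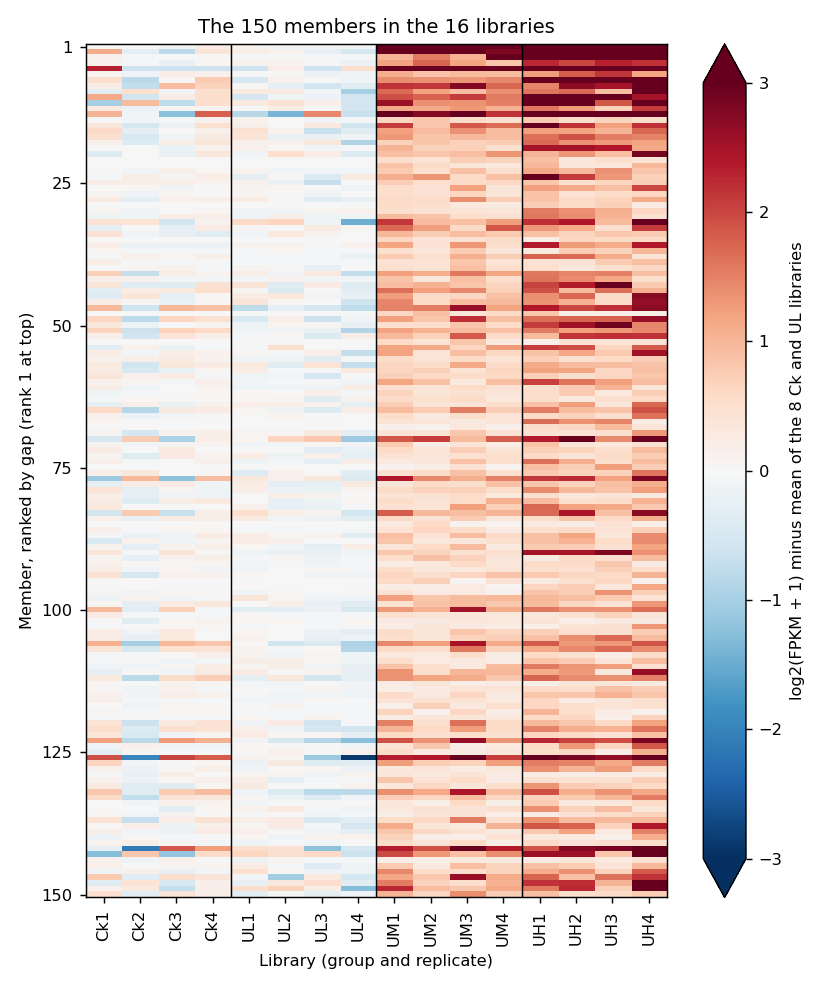
Each row is 1 of the 150 members, ranked by gap, and each column 1 of the 16 libraries; colour gives log2(FPKM + 1) minus the mean of the 8 Ck and UL libraries, and values beyond 3 take the end colour. The UM and UH columns lie above 0 in every row, as the choice requires, and red is deepest in the UH columns and in the rows of widest gap.

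The gap itself was wide in few members. It ranged from 2.93 to 0.028 on the log2 scale, exceeded 1 in 2 members and 0.5 in 8, and was under 0.1 in 67. At the edge of the choice, Cluster-9253.40934, the last member but 1, had a gap of 0.029, set by 9.25 FPKM in UL replicate 2 and 9.46 in UH replicate 3. Cluster-9253.33575 (rank 150) had a gap of 0.028, between its value in Ck replicate 1 and 1.05 FPKM in UH replicate 2. Just outside, Cluster-9253.50162 had 7.79 FPKM in Ck replicate 1 and 7.96 in UM replicate 2. Cluster-9253.12289 had 0.11 FPKM in Ck replicate 3 and 0.13 in UM replicate 2, which is 4 estimated fragments. The members just inside and just outside thus differ little. In 110 members a UM library was the lowest of the 8 high values, and in 104 a Ck library was the highest of the 8 low ones.

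The widest gap belonged to Cluster-9253.84883 (1498 bases), followed at rank 3 by Cluster-9253.14435 (1837 bases). Cluster-9253.84883 was listed at 0.04, 0.04, 0 and 0.26 FPKM in Ck and at 0.13, 0, 0 and 0 in UL. It had 8.62, 11.91, 29.48 and 1159.7 FPKM in UM and 1654.27, 3198.14, 99.96 and 501.04 in UH. UM replicate 4 alone reached the range of UH, and the other 3 UM libraries lay below every UH library. Cluster-9253.14435 followed the same libraries, with 1.11, 2.08, 1.15 and 115.53 FPKM in UM and 187.01, 351.84, 15.07 and 47.06 in UH. Deviations of the pair from their group means correlated at 0.97 over 16 libraries, so they are not independent cases.

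Other members of the 10 with the widest gap rose more evenly across libraries. Cluster-9253.41983 (3832 bases) had 0.16 to 3.33 FPKM in Ck, 0.42 to 1.26 in UL, 12.79 to 21.92 in UM and 28.36 to 43.3 in UH, so that all UH values lay above all UM values. Cluster-9253.30067 (4858 bases) had at most 0.46 FPKM in Ck and UL. Its UM values were 1.7, 1.29, 1.45 and 1.44 FPKM and its UH values 2.01, 3.46, 4.53 and 1.87. Here too UM and UH were apart, though by little. Cluster-9253.35663 (1202 bases) had at most 5.44 FPKM in Ck and UL, 10.17 to 22.01 in UM and 8.27 to 39.57 in UH, where UM and UH overlapped. Cluster-9253.35252 (1828 bases) had 1.7 to 6.59 FPKM in Ck and UL, 9.22 to 16.67 in UM and 9.17 to 44.56 in UH, again with overlap. Cluster-9253.17447, with 325 bases the shortest member, had 6.75 FPKM in Ck replicate 1 and at most 1.21 in the other 7 Ck and UL libraries. It had 11.16 to 29.97 FPKM in UM and 19.9 to 54.26 in UH, and 12.1 estimated fragments in its lowest UM library. Its gap lay between Ck replicate 1 and UM replicate 4.

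**Figure D2:**
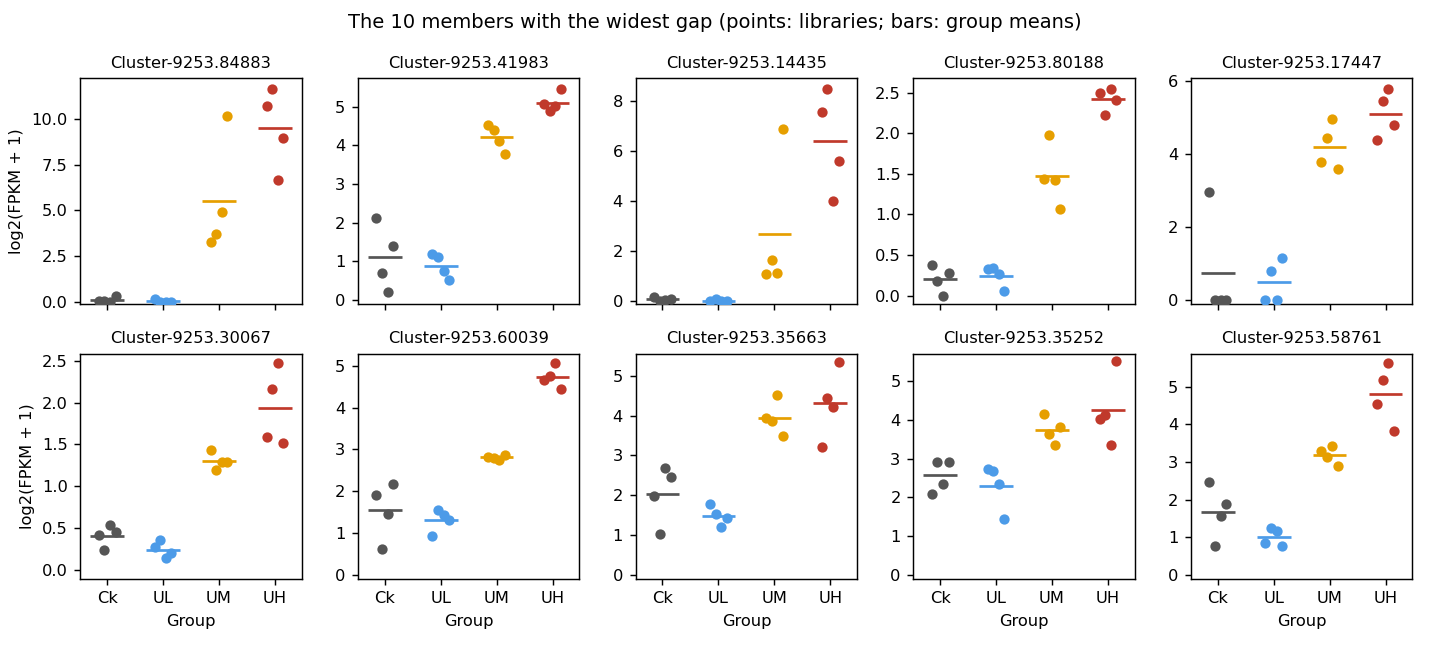
Each panel shows 1 of the 10 members with the widest gap; points are libraries (left to right, replicates 1 to 4), bars are group means, and the vertical axis is log2(FPKM + 1). UM replicate 4 stands with the UH libraries in Cluster-9253.84883 and Cluster-9253.14435, and Cluster-9253.60039 shows 4 close UM values well below its UH values.

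The step from UM to UH asks whether the members differ between the groups that the order places together. Most members were higher in UH. The mean of the UH libraries lay above that of the UM libraries in 132 of 150 members and below it in 18. Of the 135991 clusters above 0 in some library, 33.1% had a higher mean in UH. The UH mean was higher in 94 of the 105 members tested, beside 28.4% of the 36003 clusters tested. Of these 105, 16 were tested only through their UH values, so this share is not read as a rate. The median difference, UH minus UM, was 0.34 on the log2 scale over all 150, with quartiles of 0.09 and 0.63. It was -0.02 over the clusters above 0 in some library. Over the 105 members tested it was 0.42, and over all clusters tested -0.19, with quartiles of -0.39 and 0.05. Median ratio scaling of the libraries moved the median of all clusters tested to 0.01, with 51.1% of them higher in UH. The same scaling moved the median of the 105 members tested from 0.42 to 0.65, and leaving out UH replicate 4 moved it to 0.27. In 26 members the UM mean was nearer to the mean of Ck and UL than to the UH mean, and in the rest it was nearer to UH. Every UH value exceeded every UM value in 22 members (14.7%), against 1.79% of the clusters tested and 1.08% of those deposited. The reverse order was found in 0 members, against 14.6% of the clusters tested. The order keeps out clusters low in UH, so the table is not a like set for these shares, medians and counts. The 0 for the reverse order is therefore in part set by the choice.

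Only clusters that reached 1 FPKM in 4 or more libraries were tested, which 105 of the 150 members passed. Of these, 71 passed on their Ck and UL values alone, 16 needed their UH values and 10 their UM values. In limma, 6 members were higher in UH at an adjusted p under 0.05, beside 0.278% of all clusters tested. As the members that passed include those that did so through UH, this count is given for its single members and not as a rate. With no filter, 6 of all 150 passed, 5 of them the same. A fit of UM and UH alone called 6 of the 105, 4 of them the same. No member was called lower (0 of 105), beside 2.55% of all clusters tested, and 0 with limma voom on estimated fragments. At an unadjusted p under 0.05, 0 were lower in limma, beside 17.7% of all clusters tested. The choice keeps out clusters low in UH, so these 0 counts are not read as a result. An unadjusted p under 0.05 was found for 32 higher members, beside 2.79% of all clusters tested. As some members were tested only through their UH values, this count is not read as a rate either.

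Cluster-9253.60039 (977 bases) rose in steps. It had 2.72, 0.54, 1.75 and 3.52 FPKM in Ck and 0.9, 1.94, 1.71 and 1.48 in UL. It had 6.07, 5.98, 5.75 and 6.26 FPKM in UM and 24.45, 25.97, 32.62 and 20.95 in UH. The UM values lay close together, 6.02 ± 0.212 (SD, n = 4), and the mean UH value of 26.0 ± 4.89 was 4.32 times as high. The log2 difference, UH minus UM, was 1.93 ± 0.26 (SE; limma adjusted p = 0.00169).

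In 3 further members UM was low, at 0.59 to 1.33 FPKM, and the larger part of the rise in FPKM lay between UM and UH. Cluster-9253.18735 (1056 bases) had 0 to 0.51 FPKM in Ck and UL and 1.05, 0.86, 0.61 and 0.67 in UM. Its UH values were 5.62, 5.47, 7.18 and 2.04 FPKM, a log2 difference from UM of 1.67 ± 0.24 (SE; limma adjusted p = 0.00246). Cluster-9253.61353 (2337 bases) had 0.13 to 0.66 FPKM in Ck and UL, 0.87, 0.89, 1.33 and 0.94 in UM, and 4.6, 6.6, 8.72 and 2.54 in UH. Its log2 difference was 1.63 ± 0.24 (SE; limma adjusted p = 0.00271). Both had their lowest UH value in UH replicate 4 and still did not overlap between UM and UH. Cluster-9253.13541 (894 bases) had 0 to 0.26 FPKM in Ck and UL, 1.33, 0.84, 0.86 and 0.59 in UM, and 5.43, 5.48, 5.02 and 1.5 in UH. Its log2 difference was 1.41 ± 0.26 (SE; limma adjusted p = 0.0102), and the UH replicate 4 value again came closest to UM. These 3 members passed the filter only through their UH values, and all were also called with no filter.

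Cluster-9253.80188 (1767 bases) had 0 to 0.3 FPKM in Ck and UL, 1.71, 2.94, 1.68 and 1.09 in UM, and 4.65, 3.67, 4.86 and 4.31 in UH. Its log2 difference between UH and UM was 0.94 ± 0.17 (SE; limma adjusted p = 0.0105), and 0.122 was the adjusted p with a pseudocount of 0.1. Cluster-9253.58761 (671 bases) had 0.71 to 4.55 FPKM in Ck and UL, 8.75, 7.7, 9.81 and 6.42 in UM, and 22.22, 35.28, 48.72 and 13.24 in UH. Its log2 difference was 1.61 ± 0.37 (SE; limma adjusted p = 0.0307). That call was lost without any 1 UM library or without UH replicates 1, 2 or 3 (highest limma adjusted p 0.0936). The groups do not overlap in either member. In each of the other 5 called members the call held with any 1 of the 16 libraries left out (highest limma adjusted p 0.0441).

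The widest steps by size did not pass. Cluster-9253.84883 differed by 3.97 ± 1.25 on the log2 scale (SE; limma adjusted p = 0.0974) and Cluster-9253.14435 by 3.74 ± 1.12 (SE; limma adjusted p = 0.0834). In both, UM replicate 4 lay within the range of UH. For Cluster-9253.41983 the difference was 0.90 ± 0.32 (SE; limma adjusted p = 0.140) and for Cluster-9253.30067 it was 0.63 ± 0.19 (SE; limma adjusted p = 0.0801), though all UH values exceeded all UM values in each. A p that misses the threshold does not show that UM and UH were alike.

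**Figure D3:**
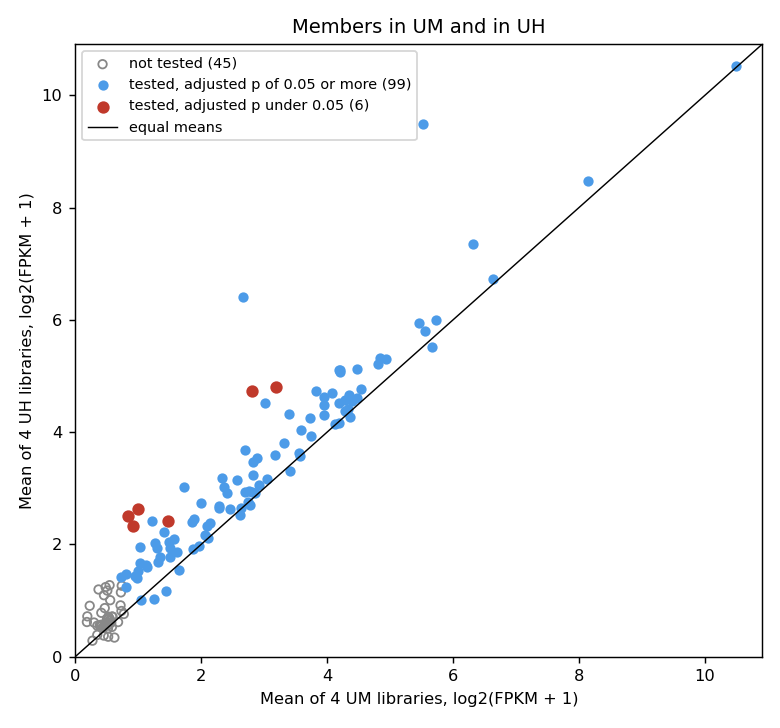
Points are the 150 members, with the mean of 4 UM libraries on the horizontal and of 4 UH libraries on the vertical axis, both as log2(FPKM + 1); the line marks equal means. Most points lie above the line, and the 6 called members are drawn in red.

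**Figure D4:**
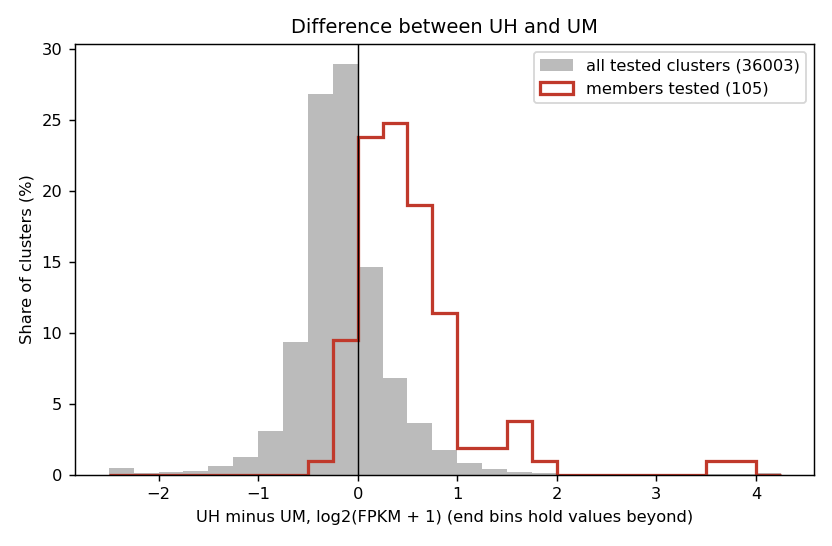
Share of clusters, in percent, by the difference UH minus UM in log2(FPKM + 1), in bins of 0.25, for all 36003 clusters tested (grey) and the 105 members tested (red line). The members peak above 0 and the whole table below 0, where its median is -0.19. The choice keeps out clusters low in UH, so these are not like sets.

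Some members were as high in UM as in UH. The ratio of mean FPKM, UH to UM, lay between 0.8 and its inverse in 50 members and was at least 2 in 38. Cluster-9253.48563 (8924 bases) had 15.2 to 18.59 FPKM in UM and 14.89 to 18.61 in UH, above 9.53 to 13.35 in Ck and UL. Its log2 difference between UH and UM was -0.02 ± 0.12 (SE; limma adjusted p = 0.922). Cluster-9253.53993, at 8959 bases the longest member, had 6.23 to 7.03 FPKM in UM and 6.44 to 8.01 in UH, above 3.24 to 5.49 in Ck and UL. Cluster-9253.41718 (8376 bases) had 3.95 to 5.35 FPKM in UM and 4.37 to 6.38 in UH, above 2.05 to 3.55 in Ck and UL. UM and UH overlapped in all 3 of these long members, and each rested on 605.8 or more estimated fragments in every UM and UH library. Their rise from the mean of Ck and UL was small, with ratios of mean FPKM of 1.44 to 1.59 in UM and 1.41 to 1.86 in UH.

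The most abundant member was Cluster-9253.47021 (428 bases). It had 193, 51.74, 834.2 and 547.56 FPKM in Ck and 329.47, 316.12, 97.63 and 160.62 in UL. It had 1174.51, 856.7, 3517.36 and 1194.47 FPKM in UM and 853.75, 1550.87, 1660.72 and 2060.96 in UH. UM and UH overlapped (log2 difference 0.02 ± 0.73, SE; limma adjusted p = 0.991), and its highest value was in UM replicate 3. Cluster-9253.47696 (922 bases) had 166.59, 10.39, 180.08 and 155.47 FPKM in its Ck libraries and 46.28, 44.92, 19.56 and 4.92 in UL. It had 185.97 to 646.2 FPKM in UM and 278.86 to 453.61 in UH. Its Ck libraries other than replicate 2 came close to its lowest UM library, so that its gap was 0.046.

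The groups on the low side of the order, UL and Ck, were compared to ask whether the members differ where they are low. UL was the lower in more members, but no single difference passed. The UL mean lay below the Ck mean in 99 of 150 members and above it in 39. The median difference, UL minus Ck, was -0.07 on the log2 scale over all 150. Over the clusters above 0 in some library it was 0.015, and 52.6% of them had a higher mean in UL. Over the 105 members tested it was -0.14, against 0.10 over all clusters tested, of which 61.9% had a higher mean in UL. After median ratio scaling the median of the members tested was -0.19 and that of all clusters tested 0.01. In limma, 0 of 105 members were called, and 10 had an unadjusted p under 0.05, all lower in UL. Over all clusters tested, 7.32% had an unadjusted p under 0.05 and were lower in UL, and 9.45% were higher. The order keeps out clusters high in UL or in Ck, so members and all clusters tested are not like sets here either. These counts of members are therefore not read as a result. The test with limma voom on estimated fragments also called 0 members. Of all clusters tested, 0.00278% were called higher and 0.0139% lower in UL. Without Ck replicate 2, a library low in many members, 6 members were called lower in UL, beside 4.97% of all clusters tested, a share close to that of the members.

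The largest falls from Ck to UL by size were in Cluster-9253.47696, at -1.92 ± 0.83 on the log2 scale (SE; limma adjusted p = 0.269), and in Cluster-9253.46976. Cluster-9253.46976 (1693 bases) had 17.96, 3.68, 18.95 and 16.06 FPKM in its Ck libraries and 6.58, 4.87, 3.46 and 2.43 in UL. Its difference was -1.37 ± 0.44 on the log2 scale (SE; limma adjusted p = 0.193). Ck replicate 2 lay within the range of UL in both. In the other direction, Cluster-9253.63055 (1109 bases) had 0.66, 6.02, 0.81 and 4.9 FPKM in its Ck libraries and 5.26, 4.63, 5.06 and 1.57 in UL (0.54 ± 0.55, SE; limma adjusted p = 0.641). Cluster-9253.11517 (968 bases) had 0.07 to 0.48 FPKM in Ck and 0.31 to 0.88 in UL (0.22 ± 0.27, SE; limma adjusted p = 0.695). The groups overlapped in these 2 members.

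Members did not vary alike within groups. Deviations of log2 values from the group mean were correlated between members over the 16 libraries, as a description with no test, since members share libraries and depth. Of the 5460 pairs among the 105 members tested, 185 (3.39%) had a correlation of at least 0.8, against 0.592% of all pairs of tested clusters. Members were chosen on values of these same 16 libraries, so all pairs of tested clusters are not a like set. The median correlation was 0.16. Joining members through such pairs gave 5 sets of 3 or more, with 32, 24, 5, 3 and 3 members, in which members may be linked through others only. The sets were formed from these values.

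The set of 32 includes Cluster-9253.35663, Cluster-9253.47021, Cluster-9253.47696, Cluster-9253.46976 and Cluster-9253.41718. In all 32 members Ck replicate 2 was the lowest Ck library, by 0.78 below the Ck mean on the log2 scale on average. In 27 of them UM replicate 3 was the highest UM library. UL lay below Ck in 30 of 32, and the median difference between UH and UM was 0.19.

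The set of 24 includes Cluster-9253.35252, Cluster-9253.40934 and Cluster-9253.63055 and followed other libraries. UH replicate 4 was the highest UH library in 23 of 24 and UH replicate 3 the lowest in all 24, with mean deviations of 0.87 and -0.87 on the log2 scale. UM replicate 1 was the highest UM library in 19 and UL replicate 4 the lowest UL library in 21. The median difference between UH and UM was 0.53, and UL lay below Ck in 7 of 24. Cluster-9253.40934 shows the pattern, with 17.92, 29.67, 9.46 and 59.89 FPKM in UH and 29.5, 11.11, 10.12 and 13.01 in UM.

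In the set of 5, which includes Cluster-9253.30067, Cluster-9253.58761 and Cluster-9253.61353, the UH libraries took the opposite places. UH replicate 3 was the highest in all 5 and UH replicate 4 the lowest in 4. The median difference between UH and UM was 1.20, and 2 of its members are among the 6 called. In both sets of 3, UH replicate 4 was the lowest UH library in every member. One of these sets holds Cluster-9253.13541 and Cluster-9253.18735, also among the 6 called. Over all 150 members, UH replicate 4 was the highest UH library in 72 and UH replicate 1 in 44. The spread within UH was wider for members than for the table: the median SD of log2 values in UH was 0.40 for members tested and 0.26 for all clusters tested, while in UM both were 0.28. In Ck it was 0.30 for members tested and 0.33 for all clusters tested, and in UL 0.24 and 0.32. The fit shares a spread over the groups, so an SE given for UH minus UM is not that of UM and UH alone.

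**Figure D5:**
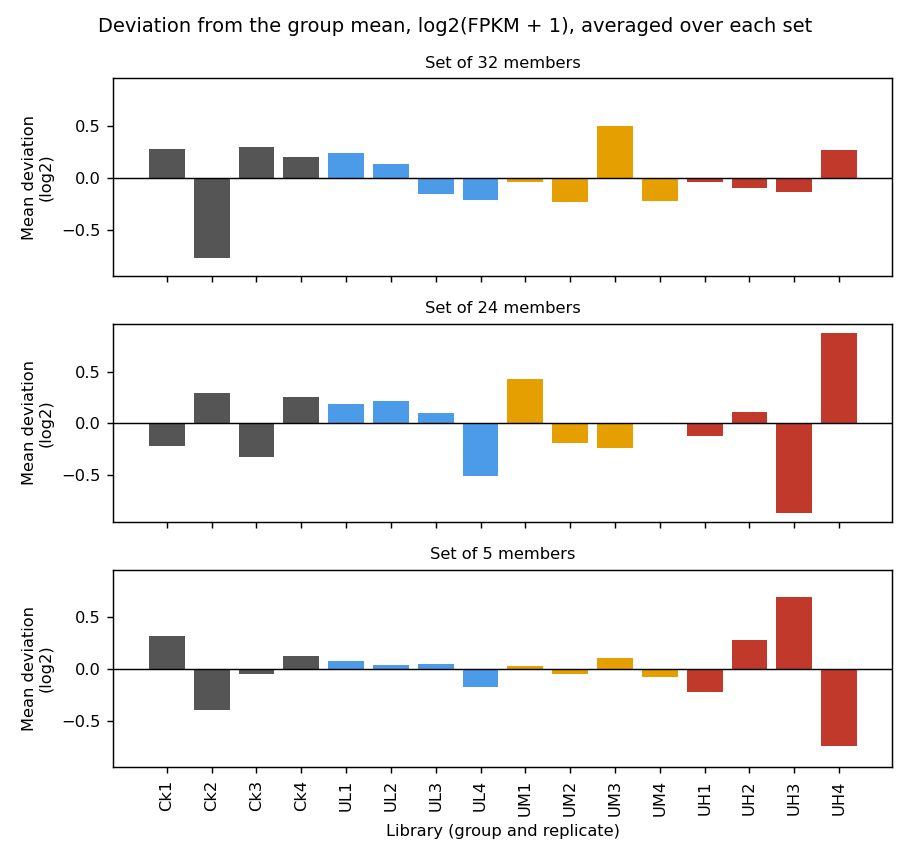
Bars give the deviation of each library from its group mean in log2(FPKM + 1), averaged over the members of the sets of 32, 24 and 5. UH replicates 3 and 4 lie on opposite sides of 0 in the sets of 24 and 5, in reversed order, and Ck replicate 2 is the lowest bar in the set of 32.

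The weakest members rested on few fragments. In 11 members all 8 Ck and UL libraries were listed at 0, and none of these reached the filter. They were 480 to 2149 bases long, had 0.06 to 1.39 FPKM in UM and UH, and rested on 15 to 99 estimated fragments in those 8 libraries together. Cluster-9253.1846 (680 bases) is 1 of them and had the largest fall from UM to UH among the members. Its UM values were 0.54, 0.88, 0.29 and 0.51 FPKM and its UH values 0.79, 0.13, 0.13 and 0.13, where 0.13 FPKM is 1 estimated fragment. Cluster-9253.37813 (898 bases), picked after its values were seen, had 0.09, 0.17, 0.38 and 0.08 FPKM in UM and 0.86, 0.68, 1.39 and 0.66 in UH, without overlap. At this depth a listing at 0 in Ck and UL does not show that the RNA was absent. In 52 members the lowest UM or UH library held under 10 estimated fragments, in 19 under 3, and in 53 at least 100.

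Members were longer than the table at large. Their median length was 1453 bases, against 599 bases for all deposited clusters. The 105 members tested had a median of 1686 bases and all clusters tested one of 1227. Of the 150 members, 145 have names that start with Cluster-9253, as do 75% of all clusters and 98.3% of those tested.

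Whether the order holds in libraries that did not choose the clusters was read by leaving out 1 replicate number from all 4 groups. The 150 clusters of widest gap were chosen on the other 12 libraries, and the 4 left out were then compared. With replicate 1 left out, 49 of the 150 chosen clusters kept UM and UH above Ck and UL in that replicate, or 32.7%, against 11.0% of the clusters tested and 9.81% of all deposited. With replicate 2 left out 61.3% kept the order, against 17.2% of those tested and 11.7% of all. With replicate 3 left out 75.3% kept it, against 16.9% of those tested and 11.8% of all. With replicate 4 left out 64.0% kept it, against 13.0% of those tested and 9.62% of all. Replicate 1, which holds Ck replicate 1, thus gave the lowest share. The clusters so chosen differ from the members, of which they held 22, 58, 66 and 75.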

How the data were processed

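Poly-A RNA of 16 whole-spider libraries was sequenced by Illumina chemistry, as the labels' protocols state. The deposited table lists FPKM per cluster, as the authors computed it, to 2 decimals, with a length taken to be in bases, per the file headers and the values. The sources used here give no aligner, assembler or counting tool. A mouse build, mm10, stands in the submitters' processing notes, and no coordinates were used. Groups and replicate numbers come from the labels. Members and lists were chosen with earlier results of these data known.

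Members were ranked on log2(FPKM + 1) over all deposited clusters. All 16 libraries entered 1 fit with a trended variance in limma 3.58.1 under R 4.3.3, with a mean per group and 12 residual degrees of freedom. The filter of 1 FPKM, to be reached in 4 or more libraries, left 36003 clusters. Tests of UH against UM and of UL against Ck were two-sided; p was adjusted by Benjamini-Hochberg over all clusters tested, with a threshold of 0.05. Fold changes on this scale understate the change of low clusters. The fit was tested on simulated data, in which values were independent and no clusters were chosen by the order.

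FPKM carries no totals, so depth was found by a search over depth and fragment length for the step that makes low values whole. In clusters no longer than 900 bases, values worth 1 to 10 fragments were whole to within 0.1 fragment in 98.6 to 98.8% of cases. Estimated fragments served for voom and to describe precision, and cover counting error only. One transcript can be split over clusters, and related sequences can share fragments.

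Named clusters are the 10 of widest gap, up to 5 with the largest called rise and fall from UM to UH, the largest rise and fall, the 3 most abundant, the 3 longest, the 2 highest and 2 lowest in UL minus Ck, and the 2 on either side of the limit of 150. Alternatives were another pseudocount, 2 other filters, 2 scalings, array weights, a fit of the compared groups, a replicate block, voom and each library left out. No reference sequence was used, so no sequences are shown.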

Additional observations from a re-analysis of the deposited data

Results flagged for a closer look

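The highest or lowest of 4 libraries stood apart from the other 3, by Dixon's ratio on log2(FPKM + 1), in 15 of 104 sets of 4 values in 26 named clusters. Sets of 4 equal values, as in Ck and UL of Cluster-9253.1846, are among the 104 but could not be flagged. Chance flags about 1 in 20 sets of normally distributed values, a rate that need not hold for values of few fragments. Ck replicate 1 stood apart in Cluster-9253.17447 with 6.75 FPKM and UM replicate 4 in Cluster-9253.14435 with 115.53 FPKM. Ck replicate 2 was low in Cluster-9253.47696 (10.39 FPKM) and Cluster-9253.46976 (3.68 FPKM), and Ck replicate 3 in Cluster-9253.40934 (2.87 FPKM). UH replicate 4 was low in Cluster-9253.13541 (1.5 FPKM), UL replicate 3 in Cluster-9253.48563 (9.53 FPKM) and UL replicate 4 in Cluster-9253.63055 (1.57 FPKM). UM replicate 3 was high in Cluster-9253.61353 (1.33 FPKM) and Cluster-9253.12289 (0.34 FPKM), and UL replicate 2 in Cluster-9253.11517 (0.88 FPKM). Values of few fragments were flagged in Cluster-9253.84883 (0.26 FPKM in Ck replicate 4 and 0.13 in UL replicate 1), Cluster-9253.14435 (0.07 FPKM in UL replicate 2) and Cluster-9253.1846 (0.79 FPKM in UH replicate 1).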

How the results depend on the processing

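The median difference of members tested, UH minus UM, stayed above 0 in all settings run, and 0 members were called lower, a count the choice limits. Leaving out a Ck or UL library cannot move that median, nor can the fit of the compared groups or the replicate block. The median was 0.42 as reported, 0.65 after median ratio scaling and 0.65 with members re-chosen after that scaling. It was 0.27 to 0.49 with a UM or UH library left out. Median ratio scaling moved the median of all clusters tested from -0.19 to 0.01, so members tested lay 0.61 above it as deposited and 0.64 after scaling. With no filter, the 150 members lay 0.37 above the median of all clusters. The choice keeps out clusters low in UH, so these distances are not between like sets. Members called higher in UH numbered 6, and 4 with a pseudocount of 0.1. There were 2 with a filter at 5 FPKM, which only 63 members passed, and these 2 are among the 6. Counts were 10 after median ratio scaling, 25 with array weights and 5 to 8 with a library left out. With members re-chosen, settings added after seeing the data, 7 were called without Ck replicate 1 and 9 after scaling. Members called lower in UL than in Ck numbered 0, 2 with array weights and 0 to 6 with a library left out.

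Of all clusters tested, 100 were called higher in UH than in UM, 37 with the filter at 5 FPKM, 197 after median ratio scaling, 588 with array weights and 33 to 155 with a library left out. Called lower were 917, 372 with no filter, 330 after median ratio scaling, 329 after quantile normalization, 4237 with array weights and 332 to 1298 with a library left out. Between UL and Ck, 1 was higher and 5 lower. The counts higher and lower were 2 and 19 with a pseudocount of 0.1, 2 and 9 with no filter, 0 and 2 with the filter at 5 FPKM, and 225 and 874 with array weights. They were 0 and 0 in the fit of the compared groups, 0 and 2 with voom, and 0 to 345 and 2 to 1790 with a library left out. The highest were without Ck replicate 2.

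The order was met by 193 clusters, by 331 after quantile normalization, which kept 98 of the 150 members among its first 150, and by 204 to 855 with a library left out, which kept 27 to 140. Taking the first 50 instead of 150 moved the share that kept the order in replicate 4 from 64.0% to 72.0%. The cause was not tested in any of these.

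The replicate numbers were not taken as pairs: same-numbered libraries deviated with correlations of -0.28 to 0.26, over 0.1 in 5 of 24 pairs, and 3 of 8 UM and UH libraries correlated best with their own number. With a replicate block, 6 members were called higher in UH, and 86 clusters higher and 692 lower in all; between UL and Ck 2 were higher and 3 lower.

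The call on Cluster-9253.60039 held in the 16 settings with a library left out and in 9 others. Those on Cluster-9253.18735 and Cluster-9253.61353 held in the same 16 and in 8 others, since neither passed the filter at 5 FPKM. That on Cluster-9253.13541 was lost in the fit of the compared groups (limma adjusted p 0.0553). That on Cluster-9253.58761 was lost in 4 of 9 settings other than left-out libraries (highest limma adjusted p 0.0775).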
